A study of Mus musculus with 12 samples.

Results

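Carbonic anhydrases are zinc enzymes that interconvert carbon dioxide and bicarbonate, and the mouse genes are named Car followed by a number. The 8 genes Car2, Car3, Car4, Car5b, Car8, Car9, Car12 and Car13 were taken by symbol from the 2 deposited count tables, which hold 32772 gene IDs in all, and each of the 8 had 1 row in both tables. The members were chosen by their measured CPM in the 4 groups, with fold changes between groups already known, so their levels, fold changes and adjusted p-values are given as a description. The other 8 carbonic anhydrase genes looked for (Car1, Car5a, Car6, Car7, Car10, Car11, Car14 and Car15) were also listed in at least 1 table, all at low levels.

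RNA was sequenced from 12 libraries from mice of the inbred strain C57BL/6N, 3 in each of the groups HFD PCN, HFD Vehicle, HFD and Chow. Mice entered the diets at 6 weeks of age and stayed on them for 18 weeks: a high-fat diet (HFD) in the first 3 groups and regular chow in the last. HFD PCN mice received the steroid PCN, an activator of the pregnane X receptor of mice, at 50 mg/kg into the peritoneum once daily on 4 days, and HFD Vehicle mice received 30% DMSO in corn oil on the same schedule. No injection is stated for HFD and Chow mice, so the 2 injected groups differ from HFD also in being injected. Whether each library came from its own animal is not stated, and the p-values therefore rest only on the spread among these samples, which may be technical. Libraries held between 11090117 and 27408092 counts. The series title names gonadal white adipose tissue and the source label names duodenum. The 8 adipocyte marker genes summed to at least 6395 CPM (counts scaled to library size) in every library, whereas the 6 intestinal epithelial markers found in both tables reached at most 6.18 CPM. Library 50 of HFD Vehicle stood apart from its group: 7 macrophage markers summed to 699.6 CPM there, against 4951 and 5560 CPM in HFD Vehicle 23 and 55, with 396.5 to 1171 CPM in Chow. Fold changes between HFD PCN and HFD Vehicle are given with and without it.

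In adipose tissue, bicarbonate made by carbonic anhydrases is a substrate for carboxylases of fatty acid synthesis and of pyruvate metabolism. The family members sit in different places. Car2, Car3 and Car13 are cytosolic enzymes, of which Car2 is fast and Car3 is slow, very abundant in adipocytes and slow muscle fibres. Car8 is a cytosolic relative without enzyme activity that binds an inositol trisphosphate receptor. Car5b is mitochondrial. Car4 is anchored to the outer cell surface by a lipid, and Car9 and Car12 are transmembrane enzymes that face outwards, of which Car9 is a textbook target of hypoxia-inducible factor (HIF).

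Promoter sequences were available from RefSeq (build GRCm38.p6) for 4 of the 8 genes: Car4, Car5b, Car9 and Car12. Those of Car9, which was higher in HFD, and of Car4 and Car5b, which were lower, are shown because these 3 had the smallest adjusted p-values by diet of the 4. Each runs 5′ to 3′ on the strand of the gene, from 250 bases before to 50 after the RefSeq start site. Capitals mark matches to the core of the HIF response element, ACGTG or GCGTG, on either strand (CACGT and CACGC on the other). ACGTG also lies within the E-box CACGTG.
Car9, chr4:43506776-43507075, plus strand: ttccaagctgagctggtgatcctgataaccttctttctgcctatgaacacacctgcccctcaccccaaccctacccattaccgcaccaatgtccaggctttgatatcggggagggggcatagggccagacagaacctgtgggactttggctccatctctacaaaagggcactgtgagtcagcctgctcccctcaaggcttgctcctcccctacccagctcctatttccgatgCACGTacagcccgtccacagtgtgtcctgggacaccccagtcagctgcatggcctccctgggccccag
Car4, chr11:84957504-84957803, plus strand: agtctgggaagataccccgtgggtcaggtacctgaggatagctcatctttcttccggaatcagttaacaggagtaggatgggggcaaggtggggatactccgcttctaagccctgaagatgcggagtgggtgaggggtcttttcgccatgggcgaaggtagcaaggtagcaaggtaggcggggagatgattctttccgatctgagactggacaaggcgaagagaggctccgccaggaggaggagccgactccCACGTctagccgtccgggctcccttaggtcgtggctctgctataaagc
Car5b, chrX:164027961-164028260, minus strand: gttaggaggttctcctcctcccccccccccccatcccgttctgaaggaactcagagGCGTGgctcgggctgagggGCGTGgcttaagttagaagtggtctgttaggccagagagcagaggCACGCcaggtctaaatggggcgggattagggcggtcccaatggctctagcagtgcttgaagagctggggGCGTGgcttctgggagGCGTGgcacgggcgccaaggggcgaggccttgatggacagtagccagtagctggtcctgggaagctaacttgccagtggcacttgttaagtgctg
Car9 held 1 match, at base 233 of the 300, before the RefSeq start site, and Car4 held 1, at base 253, just after it. The gene starts printed below for Car9 and Car4, 43506966 and 84957786, differ from these RefSeq sites. By those starts the Car9 match lies inside the gene and the Car4 match before it. Car5b held 5 matches, all to GCGTG, and Car12 held 0. Among all 32817 promoters of this length, 19.6% held ACGTG, 32.4% held GCGTG and 43.8% held at least 1 of them. Matches were thus found both in the gene that was higher and in those that were lower in HFD.

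With HFD set against Chow, the question was what the diet did to the tissue. Car3, Car4, Car5b and Car12 fell in HFD, Car9 and Car13 rose, Car2 did not pass and Car8 had too few counts to be tested. So 6 of 7 tested members passed an adjusted p of 0.05 in the quasi-likelihood test of edgeR fitted across all genes, where 59.8% of the 16216 genes tested passed. Of the genes tested, 30% were called lower, 29.8% higher, and 64.2% had an unadjusted p under 0.05. The HFD and Chow libraries did not overlap in the same 6 members, and in 68.3% of all genes tested. These shares are printed for scale, since the members were chosen with this contrast known. The median log2 fold change was -1.84 over the 7 tested members and -0.031 over all genes. The RNA came from whole tissue, so fewer cells of a type and less RNA per cell cannot be told apart here or below.

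Car3 (ENSMUSG00000027559, GRCm38 chromosome 3, 14863512 to 14872523, 7 exon blocks) was the member with the highest level in every library. It was at 1763, 1134 and 1149 CPM in HFD 4, 30 and 38, against 12879, 12199 and 10477 CPM in Chow 8, 17 and 19. Every HFD library lay far below every Chow library. The log2 fold change was -3.26 (SE 0.29, edgeR adjusted p = 5.33e-05). Its reads made up 0.175%, 0.115% and 0.115% of all counts in HFD 4, 30 and 38, against 1.28%, 1.19% and 0.821% in Chow 8, 17 and 19.

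Car3 lies in a cluster of carbonic anhydrase genes that spans 259 kb, in the order Car13, Car1, Car3 and Car2, with no other listed gene but the predicted gene Gm16399. The genes of this cluster did not all move together: Car3 fell, Car13 rose and Car2 did not pass. Car1, which had few counts, was also lower in HFD, as given below with the other carbonic anhydrases. Car13 (ENSMUSG00000027555, chromosome 3, 14641727 to 14663002) had 662, 595 and 391 counts in HFD 4, 30 and 38, against 115, 136 and 92 counts in Chow 8, 17 and 19, which is 21.4 to 24.6 CPM in HFD and 8.41 to 10.4 CPM in Chow. All HFD libraries were above all Chow libraries, and Car13 rose by 1.14 on the log2 scale (SE 0.14, edgeR adjusted p = 0.000254). Car2 (ENSMUSG00000027562, chromosome 3, 14886273 to 14900770), only 13.8 kb beyond the end of Car3, was at 3.68, 3.91 and 3.77 CPM in HFD 4, 30 and 38, against 6.07, 3.99 and 1.53 CPM in Chow 8, 17 and 19. The 3 HFD libraries were close together and lay within the spread of the Chow libraries. Its log2 fold change was -0.17 (SE 0.38, edgeR adjusted p = 0.716), and 0.28 when Chow 8 was left out.

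Car8 (ENSMUSG00000041261, chromosome 4, 8143362 to 8239041), the relative without enzyme activity, was near the detection limit. It had 13, 16 and 10 counts in HFD 4, 30 and 38, against 18, 17 and 2 counts in Chow 8, 17 and 19. Chow 19 stood below the other Chow libraries, and the groups overlapped. The default expression filter left the gene out. Without that filter its log2 fold change was -0.88 (SE 0.50, edgeR adjusted p = 0.19), and without Chow 19 it was -1.34 (SE 0.31, edgeR adjusted p = 0.00975).

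The mitochondrial enzyme gene Car5b (ENSMUSG00000031373, chromosome X, 163976822 to 164027997) was at 102.3, 83.6 and 79.8 CPM in HFD 4, 30 and 38, against 302.3, 293.4 and 278.8 CPM in Chow 8, 17 and 19. Every HFD library lay far below every Chow library. The log2 fold change was -1.84 (SE 0.13, edgeR adjusted p = 1.83e-05).

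At the cell surface, Car4 fell, Car9 rose and Car12 fell. Car4 (ENSMUSG00000000805, chromosome 11, 84957786 to 84966044) was at 17.7, 14.4 and 17.8 CPM in HFD 4, 30 and 38, against 59.2, 59.2 and 54.4 CPM in Chow 8, 17 and 19. The groups did not overlap, and the log2 fold change was -1.92 (SE 0.12, edgeR adjusted p = 1.23e-05). Car4 and Car5b had the most similar pattern of all pairs of members: after each was centred on its own mean, their log2 CPM differed by 0.412 (root mean square over 12 libraries). Car4 and Car12, a gene of few counts, came next at 0.424. The 0.5 CPM added before taking log2 narrows the changes of such a gene. Genes outside the family were nearer still, with Adgrl3 at 0.139 from Car4 and Maob at 0.127 from Car5b.

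Car9 (ENSMUSG00000028463, chromosome 4, 43506966 to 43513729) was almost undetected in Chow. It had 100, 116 and 77 counts in HFD 4, 30 and 38, against 3, 2 and 1 counts in Chow 8, 17 and 19. Scaled for depth, the summed counts gave a ratio of 24.5 for HFD over Chow, with a 95% exact counting interval of 11.1 to 67.4, which covers counting error only. The log2 fold change was 4.47 (SE 0.34, edgeR adjusted p = 2.63e-05). This SE, derived from the test statistic, is narrower than the counting interval and understates the uncertainty. DESeq2 gave a log2 fold change of 4.59 with a standard error of 0.67. Gm12454, on the opposite strand, overlaps 9.29% of the exon bases of Car9. Reads of both cannot be told apart there unless counting used strand, which the sources used here do not say.

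Car12 (ENSMUSG00000032373, chromosome 9, 66713686 to 66766845) had 3, 7 and 4 counts in HFD 4, 30 and 38, against 49, 9 and 9 counts in Chow 8, 17 and 19. Chow 8 held most of the Chow counts, though all 3 Chow libraries were above the HFD libraries once scaled for depth. The log2 fold change was -3.25 (SE 0.70, edgeR adjusted p = 0.00431), and -2.15 (SE 0.51, edgeR adjusted p = 0.007) without Chow 8.

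**Figure D1:**
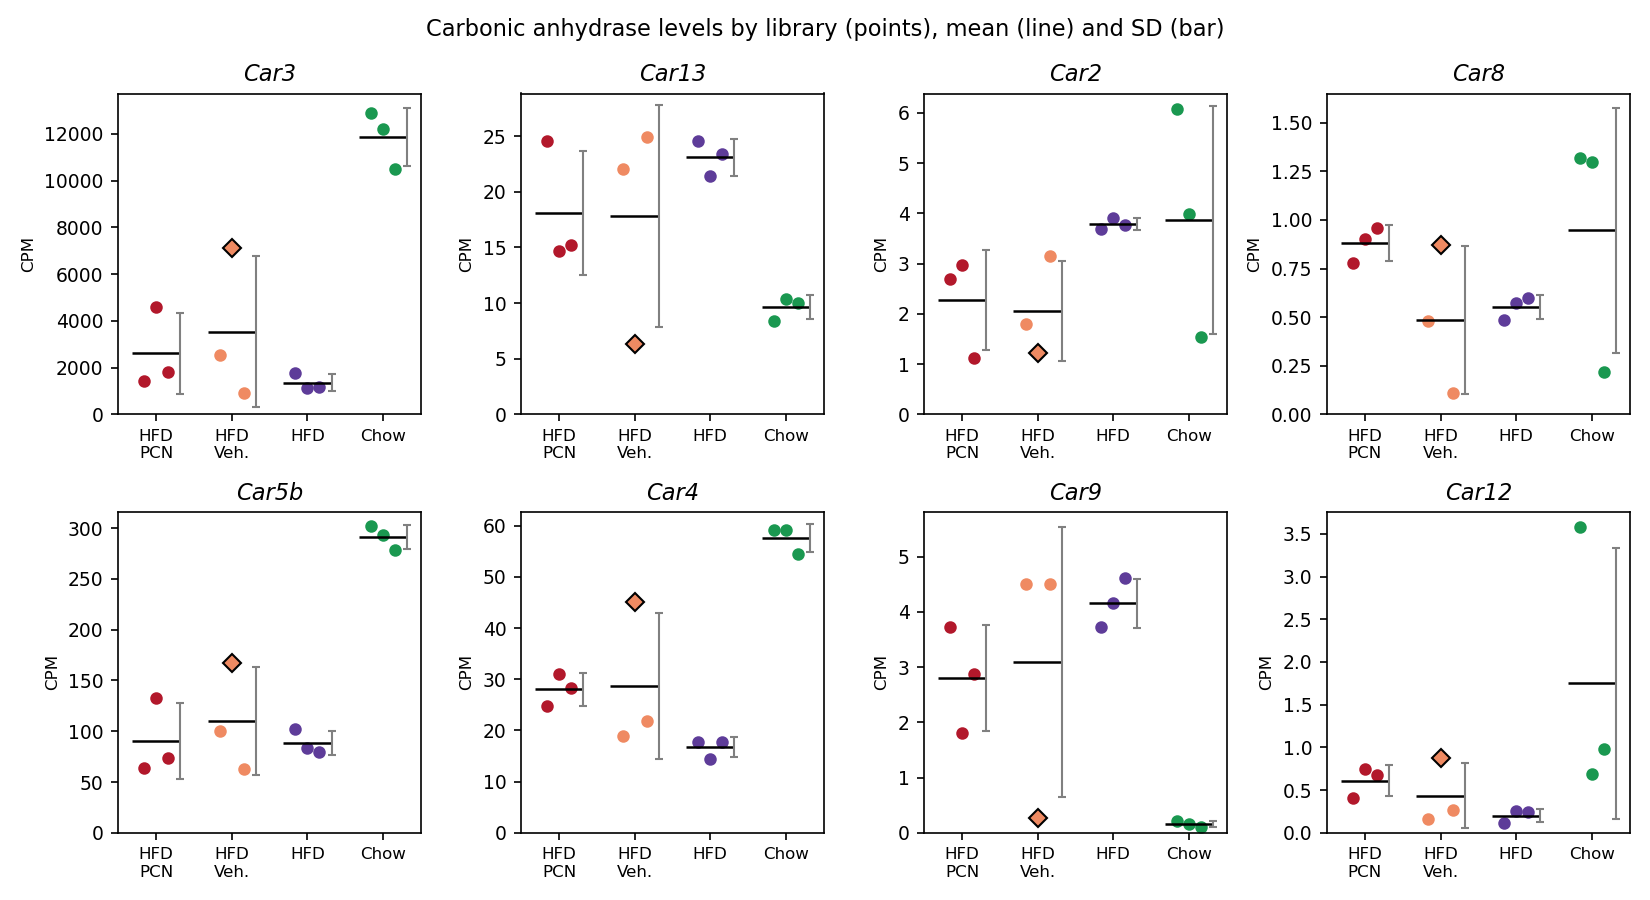
CPM of each of the 8 members (vertical axis, starting at 0, with its own scale in each panel) in HFD PCN, HFD Vehicle, HFD and Chow; points are libraries, lines are means of 3, grey bars are SD, and the diamond is HFD Vehicle 50. Car3 lies at 1134 to 1763 CPM in HFD and 10477 to 12879 CPM in Chow, while Car9 lies at 3.72 to 4.61 CPM in HFD and 0.109 to 0.219 CPM in Chow.

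Divided by exon length, Car3 exceeded every other member in every library. It averaged 470.6 ± 125 CPM per kb of exon in HFD and 4137 ± 432 in Chow (SD, n = 3 each). The diet changed the order of the rest. In HFD the levels per kb after Car3 were Car5b at 13.9, Car13 at 10.1, Car4 at 8.47, Car9 at 1.81 and Car2 at 1.56, of which only Car9 and Car2 overlapped with their neighbour. In Chow the order was Car5b at 45.9, Car4 at 29.3, Car13 at 4.19 and Car2 at 1.59, with no overlap between these neighbours, then Car8, Car12 and Car9, which overlapped. Car9 thus held the fifth place in HFD and the last in Chow.

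**Figure D2:**
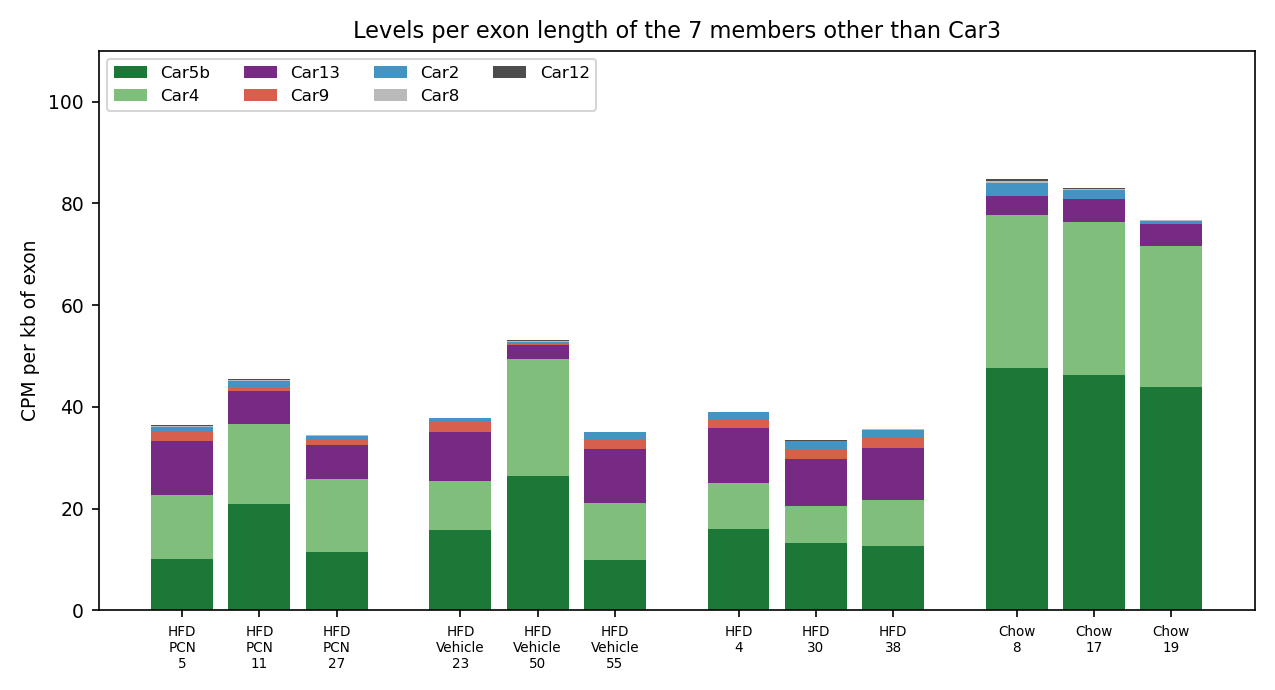
Level per kb of exon (CPM per kb, vertical axis) of the 7 members other than Car3, stacked for each of the 12 libraries, which run by group along the horizontal axis. Car5b and Car4 make up most of each bar; in HFD 4, 30 and 38 Car13 adds 10.7, 9.29 and 10.2 CPM per kb, against 3.66, 4.54 and 4.36 in Chow 8, 17 and 19.

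Markers of cell types moved with these genes. Beside the counts below, 30% of all genes tested fell and 29.8% rose. Of 8 adipocyte markers 7 fell and 1 did not pass, and their summed level was 7312 to 9156 CPM in HFD and 15166 to 20447 CPM in Chow. Set against that sum, Car3 amounted to 19.3%, 15.5% and 15.0% in HFD 4, 30 and 38, against 63.0%, 64.4% and 69.1% in Chow 8, 17 and 19. Car3 was therefore lower in HFD also relative to these markers. Relative to the sum, the same held by smaller margins for Car5b, at 1.04% to 1.14% in HFD and 1.48% to 1.84% in Chow, and for Car4, at 0.194% to 0.233% in HFD and 0.29% to 0.359% in Chow. The most abundant markers weigh most in that sum. The median log2 fold change over the 8 markers was -1.89, near the -1.92 of Car4 and the -1.84 of Car5b. Car4 and Car5b thus fell about as much as the median marker, and Car3, at -3.26, fell further. All 6 endothelial markers fell, with sums of 394.7 to 403.2 CPM in HFD and 1092 to 1161 CPM in Chow, and the part of these cells in the fall of Car4, which capillary endothelium also makes, was not tested. Skeletal muscle, another source of Car3, had a marker sum of 15.2 to 31.9 CPM in HFD and 53.0 to 68.6 CPM in Chow, nearly all of it Acta1. Of its 8 markers Acta1 fell, Myh2 rose and 6 had too few counts for the test, with Ckm and Myh4 at 0 in all Chow libraries, and the part of muscle in the level of Car3 was not tested. All 7 macrophage markers rose, with sums of 6021 to 6802 CPM in HFD and 396.5 to 1171 CPM in Chow. Of 7 tested markers of osteoclast-like cells 5 rose, 1 fell and 1 did not pass, with sums over the 7 listed in both tables of 1320 to 1524 CPM in HFD and 145.2 to 257.4 CPM in Chow. The part of these cells in the rises of Car9 and Car13 was not tested. The mitochondrial genome gave 2.30% to 2.74% of all counts in HFD and 7.30% to 29.6% in Chow, and without its genes the log2 fold changes were -3.25 for Car3 and 4.47 for Car9.

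**Figure D3:**
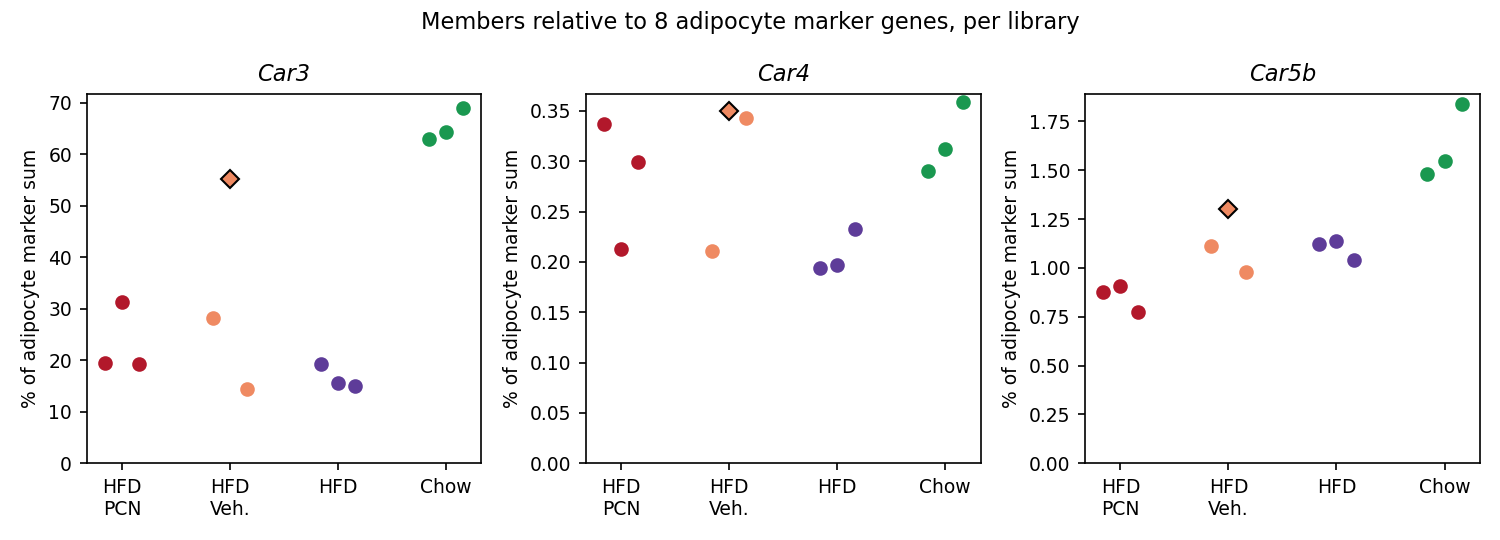
Level of Car3, Car4 and Car5b as a percentage of the summed CPM of 8 adipocyte markers (vertical axis, from 0) in each library of HFD PCN, HFD Vehicle, HFD and Chow; the diamond is HFD Vehicle 50. For Car3 the HFD libraries lie at 15.0% to 19.3% and the Chow libraries at 63.0% to 69.1%, with HFD Vehicle 50 at 55.3%.

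The other carbonic anhydrases were scarce. Only 2 of 8 had enough counts for the test and neither passed: Car7 averaged 1.64 ± 0.289 CPM in HFD and 2.21 ± 0.48 CPM in Chow (SD, n = 3 each), and Car11 averaged 1.22 ± 0.397 CPM in HFD and 1.76 ± 0.443 CPM in Chow. Car1, the abundant enzyme of red blood cells and a neighbour of Car3, had 5, 1 and 1 counts in HFD 4, 30 and 38, against 24, 20 and 4 counts in Chow 8, 17 and 19. It was named after its values were seen. Scaled for depth, its summed counts gave a ratio of 0.0732 for HFD over Chow (95% exact counting interval 0.028 to 0.163), and the gene entered the test without the expression filter, with a log2 fold change of -3.66 (standard error 0.64, edgeR adjusted p = 3.03e-05). Of 5 tested red blood cell markers 2 fell and 3 did not pass, where 30% of all genes tested fell. Marker sums were 203.3 to 328.5 CPM in HFD and 251.3 to 728 CPM in Chow. The remaining 5 genes, Car5a, Car6, Car10, Car14 and Car15, stayed at or below 2.18 CPM in every library that lists them.

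Genes that use or carry bicarbonate and protons were followed as lists chosen with earlier results of these data known. Of 8 tested carboxylases that consume bicarbonate 7 fell and 1 did not pass, with a median log2 fold change of -1.27 against -0.031 over all genes. Of all genes tested, 30% fell. Mccc1, of leucine breakdown, averaged 39.0 ± 2.06 CPM in HFD and 90.4 ± 5.75 CPM in Chow (SD, n = 3 each, edgeR adjusted p = 3.15e-05). Acaca, the acetyl-CoA carboxylase of fatty acid synthesis, averaged 162.8 ± 13.3 CPM in HFD and 448.9 ± 103 CPM in Chow (edgeR adjusted p = 0.000171). Pccb and Mccc2, subunits of propionyl-CoA and methylcrotonyl-CoA carboxylase, had log2 fold changes of -1.21 and -1.37. Pcx, the mitochondrial pyruvate carboxylase, named after its values were seen because it works in the same compartment as Car5b, had a log2 fold change of -1.09 (standard error 0.13, edgeR adjusted p = 0.000211). The member that did not pass was Cad, of pyrimidine synthesis, at -0.09.

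Of 7 tested bicarbonate transporters 3 fell, 2 rose and 2 did not pass, with a median of -0.82. Over all genes tested, 59.8% passed, 30% fell and 29.8% rose, here and for the exporters below. The sodium-coupled transporters Slc4a4 and Slc4a8 fell by 1.65 and 1.60 on the log2 scale (edgeR adjusted p = 0.000108 and 0.000255), whereas the anion exchangers Slc26a6 and Slc4a2 rose by 0.96 and 0.40 (edgeR adjusted p = 0.00169 and 0.0128). Of 9 tested proton and lactate exporters 4 rose, 2 fell and 3 did not pass, with a median of 0.13. Hvcn1, the voltage-gated proton channel of leukocytes, rose by 2.93 (SE 0.20, edgeR adjusted p = 1.65e-05). The sodium-proton exchanger Slc9a4 and Emb, a partner protein of lactate transporters, rose by 2.92 and 2.20. Genes on the opposite strand overlap 44.2% of the exon bases of Hvcn1, 21.3% of Slc9a4, 13.7% of Slc4a2 and 9.93% of Emb. Reads there cannot be told apart unless counting used strand, which is not known.

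Of 21 tested HIF targets 8 rose, 7 fell and 6 did not pass, with a median of -0.11, where 29.8% of all genes tested rose and 30% fell. Vegfa, an angiogenic growth factor, averaged 42.1 ± 5.45 CPM in HFD and 322.2 ± 64.9 CPM in Chow (SD, n = 3 each, edgeR adjusted p = 1.46e-05). Pgk1, a glycolytic enzyme, averaged 166.3 ± 5.84 CPM in HFD and 48.2 ± 10.2 CPM in Chow (edgeR adjusted p = 4.15e-05). Pfkfb3 and Hk2, also of glycolysis, had log2 fold changes of -2.44 and -1.73. Other HIF targets that rose, named after their values were seen, were Ankrd37 at 3.11 (26.4% of its exon bases overlap genes on the opposite strand), the glycolysis regulator Pfkfb4 at 2.20 and the glucose transporter Slc2a1 at 1.37.

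**Figure D4:**
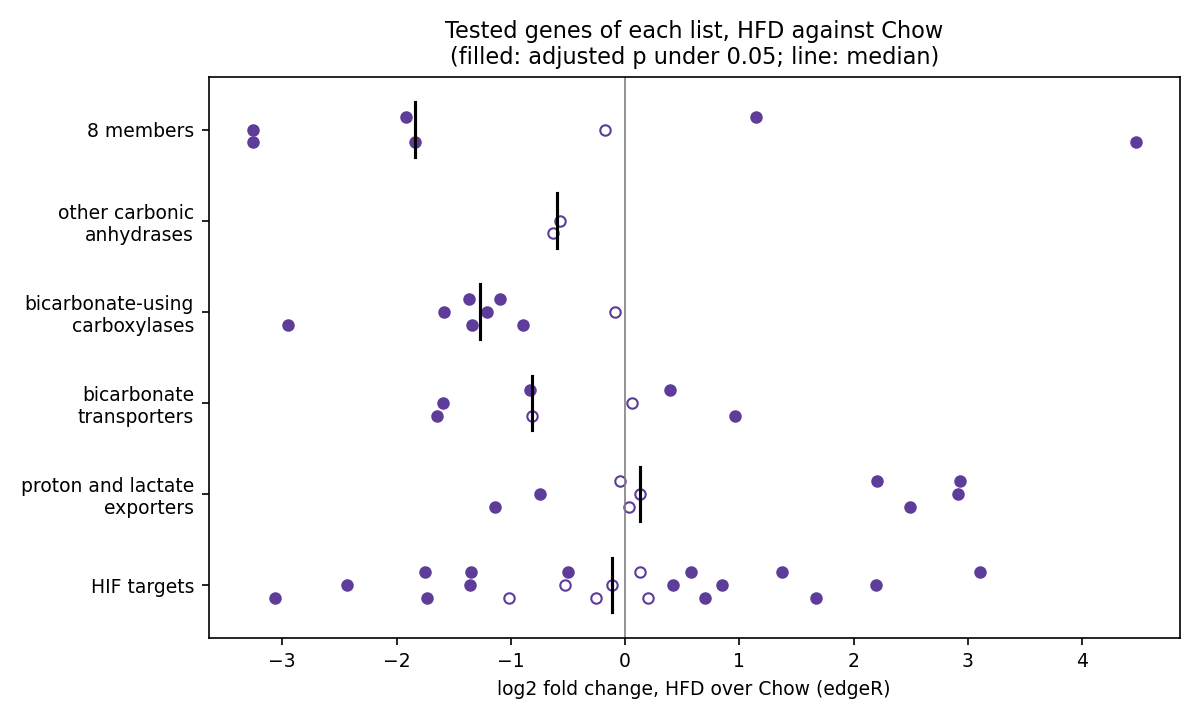
Log2 fold change of HFD over Chow (horizontal axis) for each tested gene of 6 lists, with filled points for an adjusted p under 0.05 in edgeR and a vertical line at the list's median. The carboxylases lie at or below -0.09, while the 8 members (7 of them tested) run from -3.26 to 4.47 and HIF targets lie on both sides of 0.

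The second comparison asked what PCN changed against its vehicle. None of the 8 members passed the test of edgeR, where 0% of 16563 genes passed, 281 genes (1.7%) had an unadjusted p under 0.05 and DESeq2 called 1 gene. Members' libraries overlapped between the groups in all 8, while 6.32% of all genes tested did not overlap. Car3 was at 1430, 4601 and 1820 CPM in HFD PCN 5, 11 and 27, against 2547, 7135 and 926.4 CPM in HFD Vehicle 23, 50 and 55. The lowest and the highest of the 6 values were both vehicle libraries. The log2 fold change was -0.48 (SE 0.84, edgeR adjusted p = 1), and 0.61 without HFD Vehicle 50 (edgeR adjusted p = 0.837).

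HFD Vehicle 50 set the spread of the vehicle group for most members. Car9 was at 3.73, 1.81 and 2.87 CPM in HFD PCN 5, 11 and 27, against 4.51, 0.261 and 4.51 CPM in HFD Vehicle 23, 50 and 55. Car13 was at 24.6, 14.7 and 15.2 CPM in HFD PCN 5, 11 and 27, against 22.1, 6.35 and 24.9 CPM in HFD Vehicle 23, 50 and 55. In both genes library 50 was the lowest of the 6, and its Car9 level lay just above the 0.109 to 0.219 CPM of Chow. Car4 was at 24.7, 31.1 and 28.2 CPM in HFD PCN 5, 11 and 27, against 19.0, 45.1 and 21.9 CPM in HFD Vehicle 23, 50 and 55. Car5b was at 64.1, 132.8 and 73.3 CPM in HFD PCN 5, 11 and 27, against 100.2, 167.4 and 62.5 CPM in HFD Vehicle 23, 50 and 55. Here library 50 was the highest. Its Car4 and Car5b lay between the HFD and the Chow libraries, as did its Car3 of 7135 CPM.

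The remaining members were scarce in both injected groups. Car2 was at 2.70, 2.98 and 1.12 CPM in HFD PCN 5, 11 and 27, against 1.79, 1.22 and 3.15 CPM in HFD Vehicle 23, 50 and 55. Car8 had 21, 17 and 17 counts in HFD PCN 5, 11 and 27, against 12, 10 and 2 counts in HFD Vehicle 23, 50 and 55. Its log2 fold change of 0.89 (standard error 0.65, edgeR adjusted p = 1) was the largest of the 8 members here. Car12 had 11, 14 and 12 counts in HFD PCN 5, 11 and 27, against 4, 10 and 5 counts in HFD Vehicle 23, 50 and 55. Log2 fold changes were 0.58 for Car12 (SE 0.70), 0.13 for Car2 (SE 0.49), 0.03 for Car13 (SE 0.48), -0.07 for Car4 (SE 0.37), -0.16 for Car9 (SE 0.80) and -0.32 for Car5b (SE 0.45). Each of these 6 was smaller than its standard error. Single libraries moved them. Without HFD Vehicle 50, Car8 and Car12 were each at 1.5, Car4 at 0.47, Car9 at -0.66 and Car13 at -0.35 (edgeR adjusted p = 0.8 in each), while Car5b was at 0.16 and Car2 at -0.10 (edgeR adjusted p = 0.922 and 0.972). Car8 was at 0.38 without HFD Vehicle 55, and Car12 at 0.11 without HFD Vehicle 23.

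Injected and uninjected obese mice were compared across the tables. In HFD Vehicle against HFD, none of 7 tested members passed, where 0% of 16781 genes passed with edgeR, 1639 (9.77%) had an unadjusted p under 0.05 and DESeq2 called 91. Car2 at 1.22 to 3.15 CPM in HFD Vehicle lay below its 3.68 to 3.91 CPM in HFD, and Car4 at 19.0 to 45.1 CPM in HFD Vehicle lay above its 14.4 to 17.8 CPM in HFD. These 2 of the 7 did not overlap, as did not 28.4% of all genes tested. Their log2 fold changes were -0.83 (SE 0.34, edgeR adjusted p = 0.485) and 0.86 (SE 0.38, edgeR adjusted p = 0.485). Car3 had a log2 fold change of 1.49 (standard error 0.75, edgeR adjusted p = 0.49), and 0.37 without HFD Vehicle 50, where Car4 was at 0.30 (edgeR adjusted p = 0.301).

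HFD PCN against HFD shares the 3 HFD libraries with the comparison before it, so the 2 are not independent. Car4, at 24.7 to 31.1 CPM in HFD PCN and 14.4 to 17.8 CPM in HFD, was the member that passed, with a log2 fold change of 0.77 (standard error 0.14, edgeR adjusted p = 0.0327). So 1 of 7 tested members passed, where 4.32% of 16927 genes passed, 2.97% higher and 1.35% lower, and 29.5% had an unadjusted p under 0.05. The call of Car4 ended when HFD 4, 30 or 38 or HFD PCN 27 was left out (log2 fold changes of 0.81, 0.67, 0.81 and 0.76, edgeR adjusted p = 0.145, 0.129, 0.135 and 0.1) and when all 12 libraries shared one estimate of the spread (0.77, edgeR adjusted p = 0.403). Without HFD PCN 5, Car4, Car3, Car12 and Car13 passed, among 5167 genes called, against 732 genes called in the main fit. Of the 6 endothelial markers 2 rose in this comparison and all 6 had an unadjusted p under 0.05, with sums of 522.4 to 859.2 CPM in HFD PCN and 394.7 to 403.2 CPM in HFD, and their part in the level of Car4 was not tested. Car2, at 1.12 to 2.98 CPM in HFD PCN and 3.68 to 3.91 CPM in HFD, and Car8, at 0.776 to 0.956 CPM in HFD PCN and 0.483 to 0.598 CPM in HFD, did not overlap either but did not pass (edgeR adjusted p = 0.178 and 0.139). In all, 3 of 7 tested members did not overlap, where 37.6% of all genes tested did not. Car3 had a log2 fold change of 0.97 (standard error 0.44, edgeR adjusted p = 0.189), and Car9 of -0.54 (SE 0.26, edgeR adjusted p = 0.214). Without HFD PCN 11 they were at 0.29 and -0.30 (edgeR adjusted p = 0.461 and 0.373), and without HFD PCN 5 at 1.29 and -0.79 (edgeR adjusted p = 0.0443 and 0.0516). Adipocyte marker sums were 7318 to 14631 CPM in HFD PCN and 7312 to 9156 CPM in HFD. HFD PCN 11, which had the highest Car3 of its group, also had the highest adipocyte sum and the lowest macrophage sum of it, 2311 CPM.

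**Figure D5:**
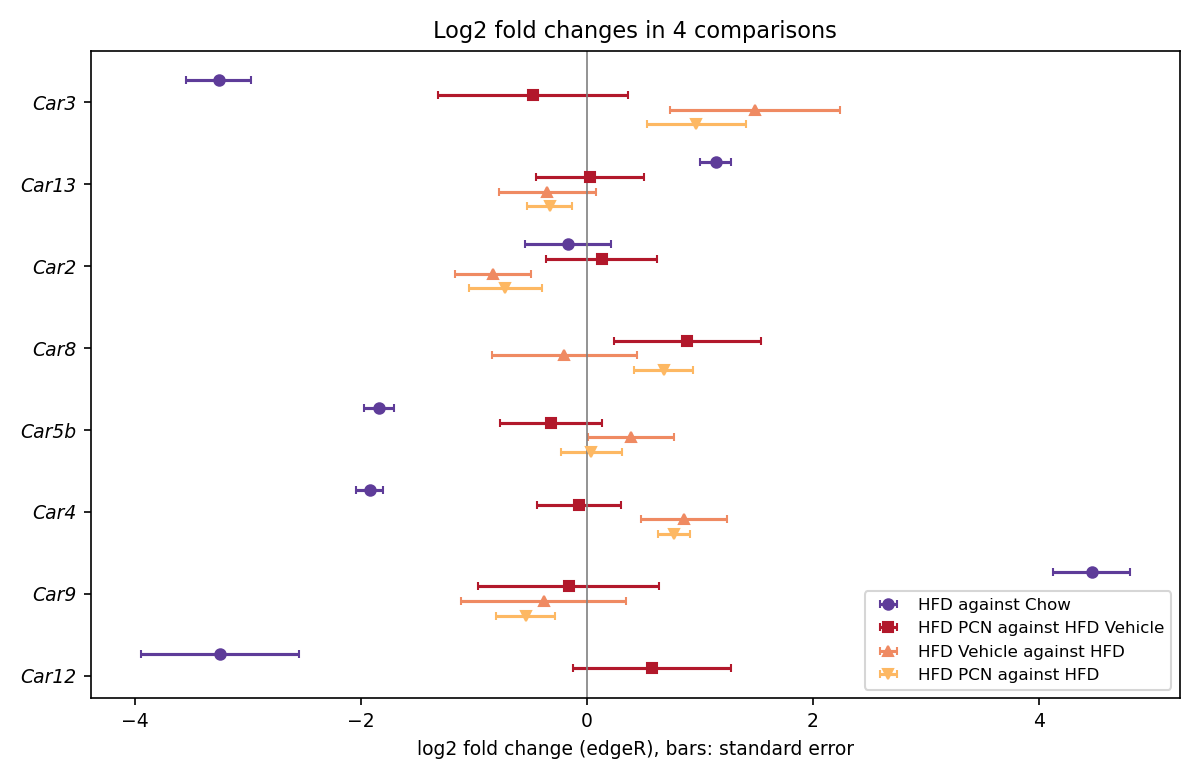
Log2 fold changes (horizontal axis, edgeR, bars are standard errors) of the 8 members in HFD against Chow, HFD PCN against HFD Vehicle, HFD Vehicle against HFD, and HFD PCN against HFD; a missing marker means too few counts for the test. The standard errors were derived from the F statistic of the test and can be too small for genes of few counts. Only the diet comparison has values beyond 2 on either side, with Car9 at 4.47 and Car3 at -3.26, and the other 3 run from -0.83 to 1.49.

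Over the 12 libraries, the genes with the pattern nearest to each member were sought among 12939 named genes with a mean of at least 1 CPM. Car3 was nearest to Ces1d, a carboxylesterase that acts as a lipase in adipocytes, with a root mean square difference of 0.246 in centred log2 CPM. Ces1d averaged 176.6, 280.6, 91.6 and 909.2 CPM in HFD PCN, HFD Vehicle, HFD and Chow. Car5b was nearest to Maob, a mitochondrial monoamine oxidase (0.127), and Aldh6a1, a mitochondrial enzyme of valine breakdown, came after Glb1l2 (0.188). Car4 was nearest to Adgrl3 (0.139), Car9 to the potassium channel gene Kcnk13 (0.105) and Car13 to Jpt1 (0.132). The nearest gene of Car2, Car8 and Car12 was Etfrf1 (0.327), Mettl7b (0.157) and Stxbp6 (0.29). The 0.5 CPM added before taking log2 narrows the changes of genes near or below that level. Mean levels for Chow and then HFD were 0.161 and 4.16 CPM for Car9, but 3.67 and 32.3 CPM for Kcnk13. They were 1.75 and 0.201 CPM for Car12, but 12.2 and 4.22 CPM for Stxbp6. The distances of Car9 and Car12 to these genes therefore do not mean fold changes of similar size. Without HFD Vehicle 50, Ces1d, Maob, Adgrl3, Kcnk13, Mettl7b and Stxbp6 stayed among the 3 nearest, and Jpt1, Etfrf1, Glb1l2 and Aldh6a1 did not.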

How the data were processed

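Gene counts of 12 RNA sequencing libraries were used. The authors deposited 2 tables, 1 for HFD with Chow and 1 for HFD PCN with HFD Vehicle, with 6 libraries and unnormalized whole-number read counts by gene in each. HISAT2, HTSeq and DESeq2 were used on GRCm38 (mm10), per the submitters' processing notes, which give no versions or order. Filters and use of strand are not given in the sources used here. The tables list 30327 and 30453 genes, 28008 of them in both. Gene IDs were matched to GENCODE M21 of GRCm38 (32760 of 32772 IDs, 98.19% of IDs with the same start and end). Coordinates are 1-based.

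The deposited counts went unchanged into edgeR 4.0.16 (R 4.3.3) and its quasi-likelihood test, after TMM scaling and filterByExpr at its defaults. P-values were adjusted by Benjamini-Hochberg over every gene tested, with a threshold of 0.05, and each comparison used its own 6 libraries. Comparisons across the tables used the genes in both. Fold changes are the group named first over the group named second. Each edgeR standard error (SE) is the absolute log2 fold change divided by the square root of the F statistic of the test. It is not a standard error of the fitted model, and for genes of few counts it can be smaller than counting error. Levels are CPM scaled by TMM over all 12 libraries and genes in both tables, and levels per kb are divided by the merged exon length. Patterns were compared on log2(CPM + 0.5). The test was checked on simulated data. Alternatives were DESeq2 1.42.0, RLE or upper quartile scaling, a minimum of 1 CPM in 3 libraries or no filter, one fit of all 12 libraries, leaving out mitochondrially encoded genes, and leaving out each library. Replicate pairs differed by more than sampling noise (chi-square per degree of freedom 6.91 to 235.6). Of the 50-base stretches in the members' transcripts, 0% to 4.76% also occurred in transcripts of other genes, most in Car9, shared with Gm12454, and in Car5b (3.79%).

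The members, lists and tests were chosen with earlier results of these data known. Genes named were the 8 members, the other carbonic anhydrases, from every list the 4 (or fewer) called genes of smallest p in HFD against Chow (cell type marker lists are given by counts and sums), and the genes of nearest pattern. A gene that this rule names is not reported here. Lists of mesothelium, epididymis and adipose progenitors were also measured: in HFD against Chow, 0 of 6 mesothelial markers passed, 5 of 6 progenitor markers rose, and no epididymal marker had enough counts for the test. Of all genes tested there, 59.8% passed and 29.8% rose.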

Additional observations from a re-analysis of the deposited data

How the results depend on the processing

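No paired analysis was possible because no replicate number is shared between groups. In HFD against Chow, edgeR called 9699 genes and between 7953 and 10889 with 1 library left out, and 6 members, or 6 to 7 with 1 library left out; the seventh was Car8, without Chow 19. The 6 called members kept direction and call under each alternative that tested them. A minimum of 1 CPM in 3 libraries left Car12 untested. Leaving out 1 library moved Car2, which did not pass, between -0.5 and 0.28 on the log2 scale.

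In HFD PCN against HFD Vehicle, DESeq2 called 1 gene. With 1 library left out, log2 fold changes ran from -0.11 to 0.54 for Car2, -1.17 to 0.61 for Car3, -0.3 to 0.47 for Car4, -0.71 to 0.16 for Car5b, 0.38 to 1.5 for Car8, -0.66 to 0.2 for Car9, 0.11 to 1.5 for Car12 and -0.35 to 0.33 for Car13, all without a call. In HFD Vehicle against HFD, DESeq2 called 91 genes, and edgeR 0 to 172 with 1 library left out, the 172 without HFD Vehicle 50. There Car5b ran from -0.12 to 0.68, Car8 from -0.79 to 0.29, Car9 from -0.72 to 0.12 and Car13 from -0.66 to 0.02. In HFD PCN against HFD, the 732 genes called became 2411 with DESeq2, 1296 without the filter and 0 with all 12 libraries in one fit, which called 0 members. With 1 library left out they ran from 0 to 5167 genes and 0 to 4 members; Car5b ran from -0.35 to 0.26. The highest counts came without HFD PCN 5, where Car3 (1.29, edgeR adjusted p = 0.0443), Car13 (-0.59, edgeR adjusted p = 0.0076) and Car12 (1.86, edgeR adjusted p = 0.02) also passed. The cause of these shifts was not tested. Counts of Car8, Car9 and Car12 limit what can be read from them.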
